A study of Homo sapiens with 9 samples.

Results

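The cytosolic ribosomal protein genes were followed in RNA-seq of HEK293T cells, an immortalised human embryonic kidney line that expresses the SV40 large T antigen. They were picked by symbol, as RPL or RPS followed by a number and an optional suffix, with RPLP0, RPLP1, RPLP2 and RPSA added. This took 84 of the 17083 genes listed. They comprise 43 large subunit genes, 3 stalk genes, 31 small subunit genes and 7 paralogs with an L after the number, such as RPL22L1. FAU, which encodes a ribosomal protein fused to a ubiquitin-like domain, was left out by the symbols.

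The 9 libraries formed 3 groups of 3. Cells of the first group overexpressed FLAG-tagged PLK2, cells of the second FLAG-tagged PLK2(D223N), whose kinase domain carries a single substitution, and cells of the third (Vector) received the FLAG vector. All groups are labelled as wild type, as HEK293T and as epithelial cells, and the 3 libraries of each group are described as biological replicates. The results come from a single transformed line, kinase activity was not measured here, and p-values measure the spread between these libraries. PLK2 RNA followed the labels, at 23744 ± 2384 CPM (counts scaled to the library total) in PLK2, 12358 ± 1650 CPM in PLK2(D223N) and 3.42 ± 0.64 CPM in Vector libraries (SD, n = 3 each). Of the epithelial markers, KRT18 lay between 67.0 and 74.1 TPM and KRT8 between 22.1 and 26.9 TPM in the 9 libraries. In contrast, CDH1 did not exceed 1.64 TPM nor EPCAM 3.41 TPM, and KRT19 was not among the genes listed.

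A ribosome joins a small subunit, which decodes the messenger RNA, to a large subunit, which forms the peptide bond and holds the exit tunnel. RPLP0 anchors dimers of RPLP1 and RPLP2 as the stalk that recruits translation factors. Messenger RNAs of ribosomal proteins typically begin with a C and a run of pyrimidines, the 5′ terminal oligopyrimidine (TOP) motif, through which mTORC1 and LARP1 act on their translation and stability.

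To show that motif in members named below, windows from 10 bases before to 14 bases after the first transcribed base annotated by RefSeq (GRCh38.p14) are given 5′ to 3′. Capitals mark the run of pyrimidines that starts with a C at that base. RPS27 (chr1:153990752-153990776, plus strand) had the highest level and RPS27L (chr15:63157463-63157487, minus strand) is its low paralog. RPL22 (chr1:6199581-6199605, minus strand) and RPL22L1 (chr3:170870181-170870205, minus strand) are the paralog pair closest in level. RPL39 (chrX:119791616-119791640, minus strand) is one of the shortest members, and RPLP0 (chr12:120201097-120201121, minus strand) is the stalk base. RPL21 (chr13:27251548-27251572, plus strand) and RPL10A (chr6:35468391-35468415, plus strand) were called between the constructs in a fit to their libraries alone. In the fit to all libraries neither was called (edgeR adjusted p of 0.86 and 0.888).
RPS27: cgctttcgctCCTTTCCggcggtga
RPS27L: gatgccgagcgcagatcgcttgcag
RPL22: cgctcacctcCCTTTCTaactccgc
RPL22L1: ccgtagcttcCTCTCTgctctcgcg
RPL39: ccgccagcttCCCTCCTCTTCCTTT
RPLP0: ggcgcgaggcCCTTCTCTCgccagg
RPL21: ccgcctctttCCTTTCggccggaac
RPL10A: aagacatgctagtctcttttccggt
RPS27L has no such run. RPL10A has none at the annotated base, although pyrimidines follow a few bases downstream. A start of this kind, defined as a C and at least 4 further pyrimidines on the transcribed strand, was found in 47 of the 67 members matched to the RefSeq promoter table (70.1%), against 988 of 15843 protein-coding genes of that table (6.24%). It was found in 25 of 35 large subunit, 3 of 3 stalk and 18 of 24 small subunit genes, and in 1 of 5 L-type paralogs, RPL22L1.

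The members were among the most abundant messages of the cells. By deposited TPM, a level per transcript length, they held 17 of the top 20 genes, 42 of the top 50 and 57 of the top 100. Of the 77 members without the L-type paralogs, 59 averaged over 1000 TPM and 10 under 500 TPM. Median levels were 2893 TPM in the large subunit, 3079 TPM in the stalk and 4001 TPM in the small subunit, against 22.6 TPM over all genes with a mean of at least 1 TPM. RPS27, a zinc-finger protein of the small subunit, averaged 12009 TPM, followed by RPL39, a very small protein near the exit tunnel, at 11405 TPM and RPS2, near the messenger RNA entry channel, at 11392 TPM. The next large subunit genes were RPL26 at 8216 TPM and RPL7A at 7053 TPM. The lowest small subunit gene, RPS28, averaged 296.2 TPM, and the highest L-type paralog, RPL26L1, averaged 322.3 TPM. RPL37, another small zinc-binding protein, was lowest of the 77 at 93.4 TPM, 129-fold under RPS27.

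**Figure D1:**
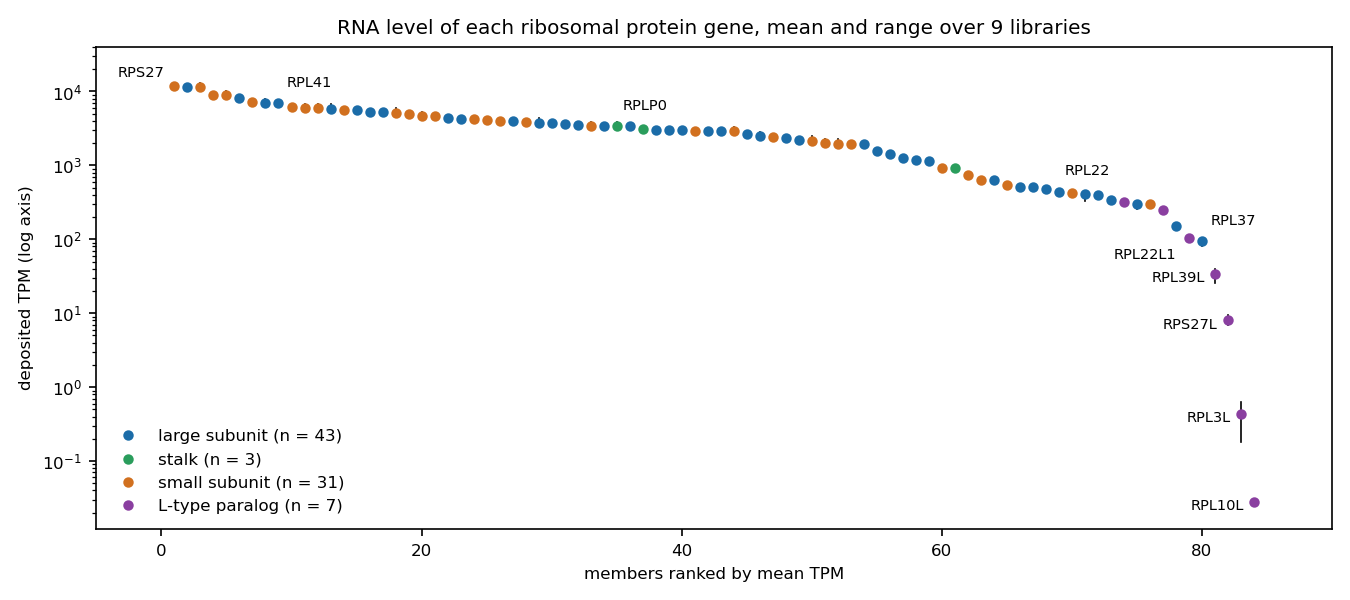
Deposited TPM (log axis) of the 84 members ranked by their mean, with points for the mean, lines for the range over 9 libraries and colours for the role. The level stays over 1000 TPM for 59 of the 77 members outside the L-type paralogs, and RPL39L, RPS27L, RPL3L and RPL10L lie at the bottom.

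The span between RPS27 and RPL37 lies in the lengths behind the TPM, as their mean estimated counts were near equal, at 6032 and 6078. The mean estimated count per TPM, scaled so that transcripts over 3000 bases have their annotated length, came to 59.3 bases for RPS27 and 87.8 bases for RPL39, whose transcripts have 359 and 401 bases. It came to 7657 bases for RPL37 and 7087 bases for RPL14, whose transcripts have 637 and 916 bases in GENCODE release 29. Of the 10 members under 500 TPM, 8 had an implied length above their annotated one, and their low TPM values stand beside these long implied lengths. By mean estimated count, which is not scaled to length, the highest and lowest of the 77 members were RPS2 and RPS29. They stood at 63808 and 1415 counts, 45.1-fold apart. Of the 77 members, 5 had an implied length under 150 bases. Levels between members, and their TPM ranks among all genes, are thus uncertain where the implied length is very short or very long. Many members also have near-identical processed pseudogenes, and RPL17, RPS10 and RPL36A have readthrough genes, between which the counting could split reads.

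The L-type paralogs were lower than their partners in every library. RPL22L1, a paralog that can replace RPL22 in the ribosome, stood at 23.8 ± 1.13% of RPL22 TPM in PLK2, 23.9 ± 0.45% in PLK2(D223N) and 22.9 ± 1.3% in Vector libraries (SD, n = 3 each). RPL7L1, which takes part in large subunit assembly, stood at 8.16 ± 0.22%, 8.27 ± 0.04% and 8.45 ± 0.35% of RPL7 TPM in the same groups. RPL26L1 averaged 3.87%, 3.98% and 3.94% of RPL26 TPM in PLK2, PLK2(D223N) and Vector. The libraries of the groups overlap in all 3 ratios. RPL39L averaged between 0.28% and 0.32% of RPL39 in the groups, and RPS27L between 0.062% and 0.071% of RPS27. The implied length of RPS27L was 6113 bases for a transcript of 808 bases, so its TPM level is uncertain. RPL3L, a striated muscle form, had 63 estimated counts in all libraries together and RPL10L, a testis form, had 1, and neither was tested.

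Each library is described here on its own because the Vector libraries stood apart from each other. The members took 6.47%, 6.62% and 6.25% of the estimated counts of the PLK2 libraries, 6.34%, 6.33% and 6.37% of the PLK2(D223N) libraries, and 7.40%, 6.22% and 6.70% of the Vector libraries. The 95% Wilson interval, which covers counting error only, was 7.38 to 7.41% for Vector replicate 1 and 6.20 to 6.23% for Vector replicate 2. Both the highest and the lowest share thus belonged to Vector, and all PLK2 and PLK2(D223N) libraries lay between them. Group means were 6.45 ± 0.19% in PLK2, 6.35 ± 0.02% in PLK2(D223N) and 6.77 ± 0.59% in Vector (SD, n = 3 each). In bulk RNA such a share cannot tell fewer cells of a kind from less RNA per cell.

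Gene by gene, too, Vector replicate 1 was highest and Vector replicate 2 lowest, while the order of the libraries between them differed from that of the shares. The median deviation of the 82 tested members from their 9-library mean of log2 CPM was 0.03, 0.07 and -0.03 in PLK2, -0.03, -0.05 and -0.04 in PLK2(D223N) and 0.15, -0.10 and 0.02 in Vector replicates 1 to 3. In Vector replicate 1, 77 of 82 members lay above their mean, and in Vector replicate 2 this held for 4. Vector replicate 1 exceeded Vector replicate 2 in 79 of 82 members, by a median of 0.26 on the log2 scale. The median coefficient of variation of a member was 3.96% in PLK2, 2.16% in PLK2(D223N) and 9.51% in Vector, beside 2.34%, 1.99% and 7.55% for 2497 genes with at least 100 CPM.

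**Figure D2:**
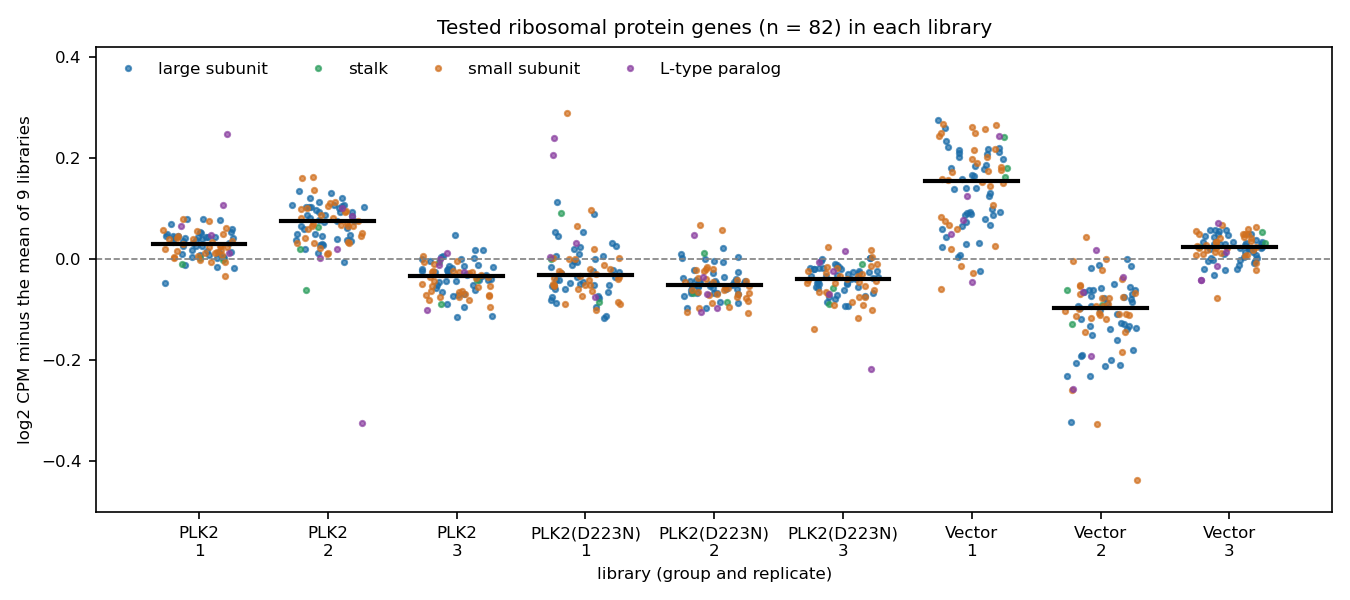
Log2 CPM of each of the 82 tested members minus its mean over the 9 libraries, by library and coloured by role, with a black bar at the median. The medians of Vector replicates 1 and 2, at 0.15 and -0.10, enclose those of all PLK2 and PLK2(D223N) libraries.

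In PLK2 against Vector, no member passed the test, and the members as a group lay level. The test was edgeR's quasi-likelihood test with Benjamini-Hochberg adjustment over all 12924 genes tested, which called 0.511% of them at an adjusted p below 0.05. DESeq2 and limma on TPM also called 0 members. An unadjusted p below 0.05 was reached by 0 members, beside 9.56% of all genes tested that were higher and 6.81% that were lower. The median log2 fold change of the members was -0.01, with 38 above and 44 below 0, beside -0.00 for all genes tested. It was 0.02 in the large subunit, -0.02 in the small subunit and -0.06 in the stalk. For 75 of the 82 members the 95% interval of the log2 fold change lay within ±0.25, and over all members the intervals ran from -0.35 (RPL39L) to 0.44 (RPS29).

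Values of the members with the smallest p in that comparison are given by library. RPS27 had 390.1, 421.8 and 375.5 CPM in PLK2 and 373.4, 315.1 and 383.0 CPM in Vector. The groups overlap, and Vector replicate 2 is the low value in CPM but not in TPM. The log2 fold change was 0.15 ± 0.07 (SE, edgeR adjusted p = 0.309). RPS29, a small zinc-binding protein of the small subunit, had 92.5, 98.1 and 86.2 CPM in PLK2 and 84.3, 64.9 and 92.0 CPM in Vector, and the log2 fold change was 0.20 ± 0.11 (SE, adjusted p = 0.382). Here too the lowest library was Vector replicate 2. RPS2 had 3896, 4017 and 3788 CPM in PLK2 and 4799, 3746 and 4104 CPM in Vector, and the log2 fold change was -0.11 ± 0.07 (SE, adjusted p = 0.413). For RPS2 it was Vector replicate 1 that stood far above, and PLK2 lay inside the Vector range in CPM. In TPM, RPS2 had 10941, 11076 and 10894 in PLK2 and 13095, 11085 and 11700 in Vector, without overlap. RPL17, near the exit tunnel, had 607.9, 625.4 and 562.9 CPM in PLK2 and 587.7, 522.7 and 581.1 CPM in Vector, and its log2 fold change was 0.09 ± 0.06 (SE, adjusted p = 0.438). RPS27L alone did not overlap between the groups, with 27.2, 27.8 and 26.0 CPM in PLK2 and 25.1, 25.3 and 25.2 CPM in Vector, where 10% of all genes tested were higher and 10.1% lower without overlap.

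In PLK2(D223N) against Vector, no member passed the test either, but most fitted changes were below 0. edgeR called 0.0232% of all genes tested, and DESeq2 and limma on TPM called 0 members. At an unadjusted p below 0.05, 7 members were lower, among them RPS3A, RPL4, RPL9, RPSA, RPL12 and RPS4X, and 0 higher, beside 3.3% of all genes tested that were lower and 5.22% that were higher. Over the members the fitted log2 fold change had a median of -0.07, with 14 above and 68 below 0, against 0.01 over all genes tested. It was -0.06 in the large subunit, -0.06 in the stalk and -0.09 in the small subunit. In CPM, 9 members lay lower with no overlap and 0 higher, beside 7.21% and 6.66% of all genes tested. The 95% interval lay within ±0.25 for 62 of 82 members.

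RPS3A, a small subunit protein, had 1807, 1805 and 1874 CPM in PLK2(D223N) and 2032, 1976 and 1985 CPM in Vector. All PLK2(D223N) libraries lay under all Vector libraries, and the log2 fold change was -0.13 ± 0.05 (SE, edgeR adjusted p = 0.574). RPL4, which lines the exit tunnel, had 1633, 1664 and 1675 CPM in PLK2(D223N) and 1945, 1713 and 1759 CPM in Vector, and the log2 fold change was -0.12 ± 0.05 (SE, adjusted p = 0.574). RPL9 had 804.0, 790.4 and 813.3 CPM in PLK2(D223N) and 978.4, 812.8 and 876.0 CPM in Vector, and the log2 fold change was -0.15 ± 0.07 (SE, adjusted p = 0.574). For RPL9 the groups overlap at Vector replicate 2.

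The 3 stalk genes also lay below 0, and none was called. RPLP0 had 1421, 1421 and 1497 CPM in PLK2(D223N) and 1782, 1443 and 1540 CPM in Vector, and the log2 fold change was -0.14 ± 0.07 (SE, edgeR adjusted p = 0.574). RPLP1 changed by -0.05 ± 0.07 and RPLP2 by -0.06 ± 0.06 on the log2 scale in PLK2(D223N) against Vector (SE, adjusted p of 0.785 and 0.743). The 3 stalk genes together took 0.723%, 0.712% and 0.717% of TPM in PLK2, 0.721%, 0.728% and 0.727% in PLK2(D223N), and 0.825%, 0.747% and 0.756% in Vector libraries. On that scale every construct library lay under every Vector library. TPM add up to a fixed total, so the overexpressed PLK2 RNA lowers the TPM of other genes in the construct libraries. PLK2 itself averaged 16930 TPM in PLK2, 9147 TPM in PLK2(D223N) and 2.44 TPM in Vector libraries. TPM shares with PLK2 left out were not calculated.

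**Figure D3:**
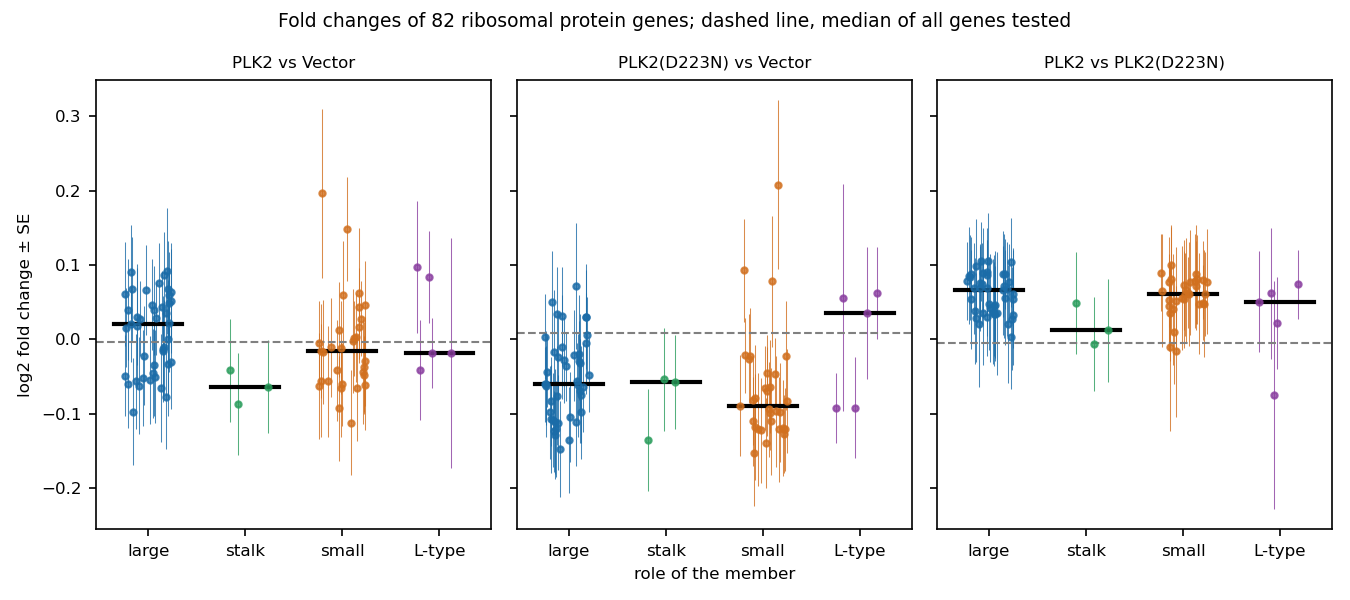
Log2 fold change with its SE for each of the 82 tested members in the 3 comparisons, by role, with black bars at the role medians and a dashed line at the median of all genes tested. Members lie around 0 in PLK2 vs Vector, mostly below it in PLK2(D223N) vs Vector and mostly above it in PLK2 vs PLK2(D223N).

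In PLK2 against PLK2(D223N), 78 of 82 members had a fold change above 0 and none passed the test. edgeR called 0.162% of all genes tested, DESeq2 and limma on TPM called 0 members. An unadjusted p below 0.05 was reached by 0 members, beside 2.98% of all genes tested that were higher and 3.06% that were lower. The median log2 fold change was 0.06, against -0.00 over all genes tested, and was 0.07 in the large subunit, 0.06 in the small subunit and 0.01 in the stalk. In CPM, 18 members lay higher in PLK2 with no overlap and 0 lower, beside 11% and 9.49% of all genes tested. PLK2 replicate 3 lay nearest to the PLK2(D223N) libraries, with a median deviation of -0.03 against 0.03 and 0.07 in the other PLK2 libraries. All 43 large subunit genes lay above 0.

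RPS7, which is needed to process the small subunit's ribosomal RNA, had 948.5, 984.5 and 902.5 CPM in PLK2 and 891.3, 856.7 and 896.9 CPM in PLK2(D223N). The groups do not overlap, and the log2 fold change was 0.10 ± 0.05 (SE, edgeR adjusted p = 0.86). RPL21 had 637.4, 648.2 and 603.7 CPM in PLK2 and 579.4, 578.5 and 599.0 CPM in PLK2(D223N), again without overlap, and the log2 fold change was 0.10 ± 0.05 (SE, adjusted p = 0.86). RPL7 had 1580, 1628 and 1510 CPM in PLK2 and 1458, 1475 and 1508 CPM in PLK2(D223N), where PLK2 replicate 3 and PLK2(D223N) replicate 3 nearly met. RPL6 had 1230, 1289 and 1188 CPM in PLK2 and 1155, 1161 and 1177 CPM in PLK2(D223N). RPL5 and RPL11, which bind MDM2 with the 5S ribosomal RNA, changed by 0.09 ± 0.05 and 0.07 ± 0.06 on the log2 scale (SE, adjusted p of 0.887 and 0.942).

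The estimate of the spread decided calls in this comparison. Fitted to its 6 libraries alone, without the wider Vector group, edgeR called 5 members higher in PLK2, RPL27, RPL21, RPS7, RPL23 and RPL10A, among 2.92% of all genes that were called higher. Their log2 fold changes were between 0.098 and 0.105, with adjusted p from 0.013 to 0.040. The number of calls moved with the library left out, in fits that also have fewer libraries. Without PLK2(D223N) replicate 1 only RPL10A was called (log2 fold change 0.11), among 2.03% of all genes, and without PLK2(D223N) replicate 3 only RPL21 (0.12), among 1.69%. Without PLK2(D223N) replicate 2, PLK2 replicate 1 or PLK2 replicate 2, 0 members were called. Without PLK2 replicate 3, edgeR called 48 members higher, among 4.9% of all genes called higher, of which 25 were in the large and 21 in the small subunit. All 5 members were among them, and the median log2 fold change of the members was 0.09 in that fit, 0.03 without PLK2 replicate 2 and 0.05 to 0.07 without any one of the others. PLK2 replicate 3 had the lowest median deviation of the PLK2 libraries (-0.03), so leaving it out raises the median by construction. These fits share libraries and were chosen after the data were seen, so the 48 calls add no separate support.

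Which Vector library served as the control set the direction of the comparisons with Vector. The PLK2 mean lay below Vector replicate 1 by a median of -0.13 on the log2 scale, with 13 of 82 members above it. It lay above Vector replicate 2 by 0.11, with 79 members above, and level with Vector replicate 3 at -0.00, with 39 above. The PLK2(D223N) mean differed by -0.19 from Vector replicate 1, with 3 of 82 members above it, by 0.05 from Vector replicate 2, with 68 above, and by -0.07 from Vector replicate 3, with 7 above. Over all genes tested the same medians were between -0.02 and 0.00.

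**Figure D4:**
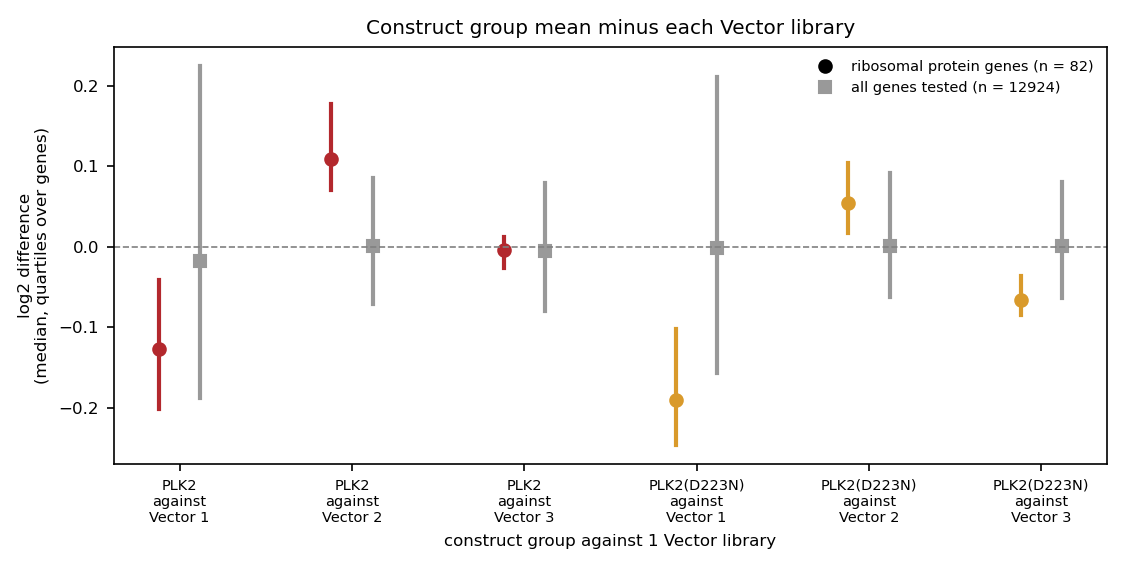
Median (points) and quartiles (lines) over genes of the log2 CPM difference between a construct group's mean and each Vector library, for 82 members and for 12924 genes tested. The members lie below 0 against Vector replicate 1 and above 0 against Vector replicate 2 for both constructs, at -0.13 and 0.11 for PLK2 and at -0.19 and 0.05 for PLK2(D223N).

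Leaving a Vector library out of the fit turned the direction in PLK2 against Vector but not in PLK2(D223N) against Vector. In PLK2 against Vector the median log2 fold change of the members was 0.06 without Vector replicate 1, -0.08 without Vector replicate 2 and -0.02 without Vector replicate 3. In PLK2(D223N) against Vector it was -0.01, -0.13 and -0.07 without those libraries, so it stayed below 0 but came close to 0 without Vector replicate 1. Without Vector replicate 2, edgeR called RPS2 lower in PLK2 (log2 fold change -0.19 ± 0.06, SE, adjusted p = 0.037) among 3.46% of all genes called lower. In the same fit RPSA, a small subunit protein also known as the laminin receptor, was lower in PLK2(D223N) (log2 fold change -0.22 ± 0.06, SE, adjusted p = 0.049), among 0.184% of all genes called lower. With all libraries RPSA had 1484, 1480 and 1554 CPM in PLK2(D223N) and 1892, 1507 and 1626 CPM in Vector, and its adjusted p was 0.574.

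The members are short, with a median transcript of 764 bases against 2619 bases for the other tested genes, and for many of the short ones the relation of counts to TPM differed between libraries. For the 7 members of up to 500 bases, the median of the estimated count per TPM, relative to each member's mean over libraries, was 1.08 in PLK2(D223N) replicate 1 and 0.90 in Vector replicate 2, and for the 18 members of over 1000 and up to 2000 bases it was 1.01 and 0.99. The ratio of RPS27 was 1.02, 1.04 and 1.01 in PLK2, 1.15, 1.06 and 1.00 in PLK2(D223N) and 0.92, 0.82 and 0.99 in Vector. RPS29 reached 1.18 in PLK2(D223N) replicate 1 and 0.783 in Vector replicate 2. The spread did not follow annotated length in every member. The ratio was nearly flat for RPL4, of 2317 bases, at 0.998 to 1.004, but also for RPL38, of 431 bases, at 0.988 to 1.008, and for RPL37A, of 529 bases, at 0.998 to 1.004. For RPL28 it ran the other way, at 0.965 in PLK2(D223N) replicate 1 and 1.047 in Vector replicate 2. RPS27 in TPM was almost level between PLK2 (11973, 12475 and 11882 TPM) and Vector (12307, 12457 and 12202 TPM), although its log2 fold change in counts was 0.15.

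**Figure D5:**
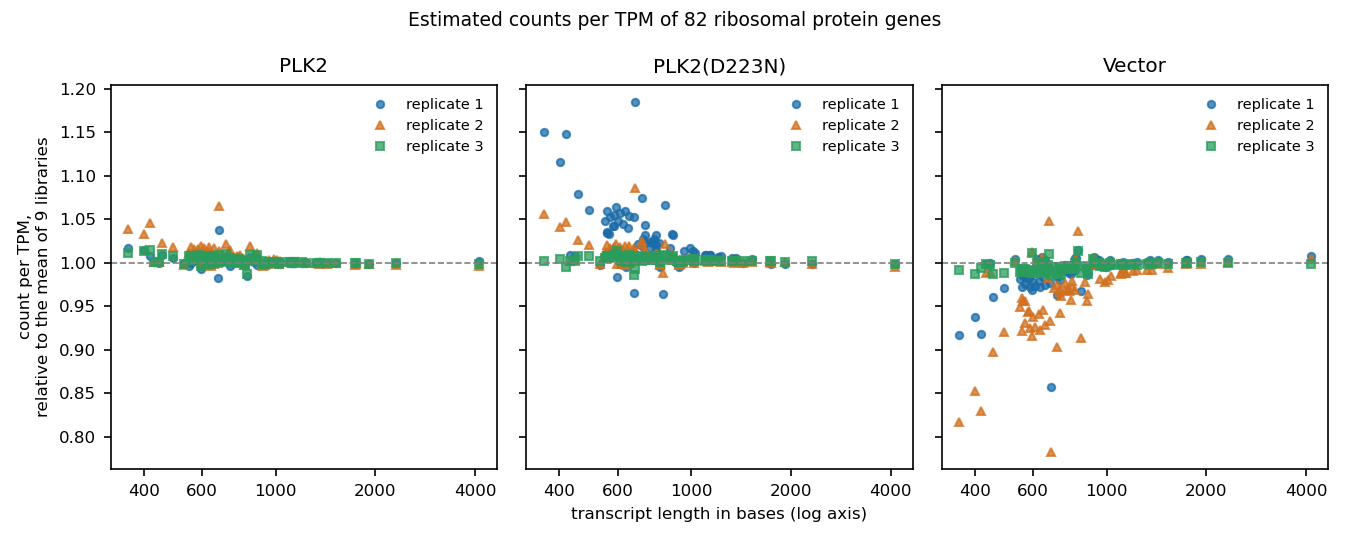
Estimated count per TPM of each tested member with a usable ratio, relative to its mean over 9 libraries, against transcript length (log axis). The widest spread is that of RPS29, at 1.18 in PLK2(D223N) replicate 1 and 0.783 in Vector replicate 2, while some short members such as RPL38 and both members over 2000 bases lie at about 1.

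On the TPM scale, more members lay lower without overlap in PLK2(D223N) than in PLK2, each against Vector. In PLK2 against Vector, 12 members (14.6%) lay lower without overlap and 2 higher (RPL22L1 and RPS27L), beside 12.6% and 6.9% of 11998 genes with a mean of at least 1 TPM, so the lower share was near that of all genes. In PLK2(D223N) against Vector, 24 (29.3%) lay lower and 1 higher (RPL22L1), beside 3.58% and 11.9%. In PLK2 against PLK2(D223N), 3 lay lower and 9 higher, beside 21% and 4.03%. RPL39 had 11160.4, 11381 and 11299.6 TPM in PLK2, 10887, 11025 and 11314 TPM in PLK2(D223N), and 11804, 11837 and 11935 TPM in Vector, below Vector in every construct library. In CPM the RPL39 groups overlapped, and the log2 fold change against Vector was 0.07 ± 0.06 in PLK2 and 0.03 ± 0.06 in PLK2(D223N) (SE). The relative count per TPM of RPL39 ran from 0.852 in Vector replicate 2 to 1.12 in PLK2(D223N) replicate 1. The members together took 26.5%, 26.8% and 26.0% of TPM in PLK2, 25.7%, 25.9% and 26.2% in PLK2(D223N), and 28.5%, 26.7% and 27.2% in Vector, where PLK2(D223N) lay under all Vector libraries and PLK2 replicate 2 did not. All these TPM values have the PLK2 RNA in their total, which lowers those of the construct libraries. With offsets for the effective length, the median log2 fold change of the members was -0.04 in PLK2 and -0.11 in PLK2(D223N) against Vector, and edgeR called 0 members.

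Removing trends with GC content and transcript length gave RPS27 as the only member called in PLK2 against Vector, at a log2 fold change of 0.15 ± 0.04 (SE, edgeR adjusted p = 0.026), among 2.3% of all genes called higher. With the replicate number as a further term it was again RPS27 alone, beside 2.17%. This rests on counts, whose relation to TPM for RPS27 differed between libraries as above. Without Vector replicate 1 the same fit called 7 members higher in PLK2 than in Vector (RPS27, RPS15A, RPL41, RPL11, RPL31, RPS28 and RPL10A, beside 2.43% of all genes) and 3 higher than in PLK2(D223N) (RPL3, RPS7 and RPL10A, beside 2.14%). Without Vector replicate 2 it called RPS27 higher in PLK2 (beside 5% of all genes) and 4 members lower in PLK2(D223N) than in Vector (RPS3A, RPL7L1, RPSA and RPL4, beside 2.07%). Without Vector replicate 3 it called RPS27 and RPL35 higher in PLK2, beside 1.66%. With effective-length offsets instead, over all libraries, RPS27 stood at -0.02 ± 0.06 in PLK2 against Vector (SE, edgeR adjusted p = 0.842).

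Effective-length offsets gave calls of members only when Vector replicate 1 or 2 was left out. Without Vector replicate 1 they gave RPL31 as higher in PLK2 than in Vector, beside 1.77% of all genes, and RPL27, RPL21, RPS7 and RPL10A as higher than in PLK2(D223N), beside 1.57%. Without Vector replicate 2 they gave RPL18 and RPS2 as lower in PLK2 than in Vector, beside 2.61%, and members including RPS12, RPL9, RPL18, RPL27 and RPS10 as lower in PLK2(D223N) than in Vector, beside 0.169%. The calls thus went up or down with the Vector library removed. What part transcript length has in these differences was not tested further.

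Members with and without the TOP-like start lay on the same side in these comparisons. In PLK2(D223N) against Vector the median log2 fold change was -0.06 for 47 members with the start and -0.09 for 19 tested members without it, against -0.01 for 741 other tested genes with the start and 0.01 for 9805 without. In PLK2 against PLK2(D223N) it was 0.05 with the start and 0.07 without, against 0.01 and -0.01 for the other genes.

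Other translation genes on TOP messages, a list of 20 with elongation factors, subunits of eIF3 and FAU among them, lay on the same side as the members. In PLK2(D223N) against Vector 1 of 20 lay above 0, with a median log2 fold change of -0.08, and in PLK2 against PLK2(D223N) 20 of 20 lay above 0, with a median of 0.08. No gene of it was called in any comparison, and the median in PLK2 against Vector was -0.01. EEF1A1, the main elongation factor that delivers aminoacyl-tRNA, had 12061, 12325 and 11409 CPM in PLK2, 10874, 11072 and 11222 CPM in PLK2(D223N), and 12982, 11485 and 11998 CPM in Vector. Its log2 fold change in PLK2(D223N) against Vector was -0.14 ± 0.05 (SE, edgeR adjusted p = 0.574), with no overlap between these groups. FAU had a log2 fold change of -0.08 ± 0.08 there (SE, edgeR adjusted p = 0.704).

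No gene of 5 further lists, on ribosome production, its regulation and the mitochondrial ribosome, was called in any comparison. Among 32 nucleolar biogenesis genes the median log2 fold change was -0.01 in PLK2 and -0.02 in PLK2(D223N) against Vector, and among 20 assembly and export genes it was -0.02 and -0.03. In the first list GAR1, a component of box H/ACA particles, stood at 0.17 ± 0.07 in PLK2(D223N) against Vector (SE, edgeR adjusted p = 0.574), and in the second TSR2, a chaperone of RPS26, at -0.12 ± 0.06 (SE, adjusted p = 0.582). For 15 genes of RNA polymerase I and its factors it was -0.04 and -0.06, where TAF1D, a subunit of the promoter selectivity factor, stood at 0.30 ± 0.08 in PLK2 (SE, adjusted p = 0.119) and UBTF, the upstream binding factor, stood at -0.19 ± 0.06 in PLK2 (SE, edgeR adjusted p = 0.137). For 15 mTORC1 and TOP regulators it was -0.05 and -0.04, and RPTOR, which gives mTORC1 its substrates, stood at -0.27 ± 0.06 in PLK2 (SE, adjusted p = 0.055). The 78 mitochondrial ribosomal proteins, which serve a separate ribosome, had medians of -0.07 in PLK2 and -0.06 in PLK2(D223N) against Vector, with 21 and 19 above 0. MRPL49, MRPS6 and MRPS27 stood at -0.23 ± 0.08, -0.21 ± 0.07 and -0.13 ± 0.05 on the log2 scale in PLK2(D223N) against Vector (SE, adjusted p = 0.574 for each). In PLK2 against PLK2(D223N) the medians of these lists were between -0.00 and 0.03.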

How the data were processed

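Polyadenylated RNA of 9 HEK293T cultures was sequenced, and groups were taken from the labels. The submitters' processing notes list Bowtie2, RSEM 1.3.1, DESeq2 1.4.5 and the build GRCh38.p13. What each tool did, the gene models and whether strand was used is not given in the sources used here. Estimated counts, not always whole, were deposited by the authors for every gene, with TPM in columns of their own per the file headers. A further 18 columns of per-library values were not used. One Vector title has 2 letters transposed, and its column was matched by number.

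Estimated counts were rounded, filtered with filterByExpr (minimum count 10), scaled by TMM and fitted with edgeR 4.0.16 (quasi-likelihood, robust) over all 9 libraries with group as the only term. P-values are two-sided, adjusted by Benjamini-Hochberg, and called below 0.05. Library totals ran from 14288165 to 16510186 estimated counts. CPM are on the TMM scale. Transcript lengths and GC content came from GENCODE release 29, for 12841 of 12924 tested genes, and start sequences from RefSeq (GRCh38.p14). Log2 values of TPM were tested with limma 3.58.1 (pseudocount 1 or 0.1), and DESeq2 1.42.0 and R 4.3.3 were used. The relative effective length is the estimated count over the deposited TPM, scaled within each library to transcripts over 3000 bases.

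Members and lists were chosen with earlier results of these data known. The named members are those with the 4 smallest p in each comparison, the highest and lowest by TPM in each role, paralog pairs, and members called in any fit, and of each further list those with the smallest p in PLK2(D223N) against Vector. Some members that this rule names are not reported here. RPL5, RPL11, RPL14 and RPTOR were named after their values were seen. RPL28, RPL37A and RPL38 lie outside the rule too and were named for their ratios of count to TPM. The tests were tried on simulated counts.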

Additional observations from a re-analysis of the deposited data

How the results depend on the processing

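Median log2 fold changes of the members kept their direction under all alternatives in PLK2(D223N) vs Vector (-0.15 to -0.01) and PLK2 vs PLK2(D223N) (0.02 to 0.09). In PLK2 vs Vector the median of -0.01 turned to 0.018 with GC and length trends removed (0.018 with the replicate block too), to 0.034 and 0.013 when Vector replicate 1 or 3 was also left out, and to 0.017 with effective-length offsets without Vector replicate 1. Leaving out 1 library moved it between -0.076 and 0.056. With effective-length offsets and without Vector replicate 2 it was -0.091 in PLK2 and -0.15 in PLK2(D223N). Counts of members called, 0 in the fit to all libraries, ranged from 0 to 1 when a library was left out. They were 1 in PLK2 vs Vector with GC and length trends removed (also with the replicate block), 7, 1 and 2 of them without Vector replicates 1, 2 and 3, with 4 in PLK2(D223N) vs Vector without Vector replicate 2 and 3 in PLK2 vs PLK2(D223N) without Vector replicate 1. With effective-length offsets they were 1 and 4 without Vector replicate 1 (PLK2 vs Vector, PLK2 vs PLK2(D223N)) and 2 and 6 without Vector replicate 2 (PLK2 and PLK2(D223N) vs Vector). The 6-library fit called 5, and 0 to 48 without single libraries. With PLK2 left out of the total, the share of counts was 6.60% in PLK2, against 6.45%, and 6.43% in PLK2(D223N), against 6.35%, and PLK2 replicate 2 then stood at 6.80%, above Vector replicate 3 at 6.70%. The cause of these shifts was not tested. The replicate block alone called 0 members. Same-numbered libraries correlated between -0.11 and 0.14, and differently numbered ones between -0.22 and 0.12. The labels do not say whether the numbers pair samples, and these correlations cannot tell. Effective-length offsets and the 6-library fits without a library were chosen after seeing the data. Of 5850 single values under alternatives, 515 moved by more than their SE and 89 became calls. The low counts of RPL39L, RPL3L and RPL10L limit what can be said of them. For RPS27L the limit is its long implied length, which leaves its TPM level uncertain.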
